A study of Mus musculus with 9 samples.

Results

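The member wells described here hold tdTomato-sorted cells of the developing mouse ventral midbrain in which RNA of Otx2 or of its opposite-strand transcript Otx2os1 was found together with Pappa, Jag1 or Lgr5 RNA. They are candidate GABAergic neurons of a class named here after Otx2, Pappa and Jag1. The study assigned GABAergic clusters labelled by Otx2 to the ventral tegmental area (VTA). The rule below is not the study's, so the members need not be the cells of those clusters. A well of a VGAT plate was kept when it held at least 2000 genes, at most 50000 counts and under 15% mitochondrial counts. A kept well was a member when Otx2 and Otx2os1 summed to at least 1 count, and when Pappa, Jag1 and Lgr5 summed to at least 4 counts and to more than Neurod6, Cxcl12 and Pgm5. By this rule 94 of the 1460 kept wells were members, out of 3455 wells in the whole series. The mice carried VGAT-Cre, the Ai14 tdTomato reporter and Pitx3-GFP, and the labels name no treatment. Cells of embryonic day 16 (E16) filled 4 VGAT plates and cells of the day of birth (P0) filled 3. A pair of further plates held cells sorted for tdTomato and GFP together. Because Cre recombination is permanent, the sort also takes cells that used VGAT only in the past. Several brains were used at each age and no label ties a plate to a litter or an animal, so the p-values below measure the spread between plates, which may be technical.

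GABAergic neurons make the inhibitory transmitter GABA with the enzymes Gad1 and Gad2 and load it into vesicles with Slc32a1 (VGAT). In the VTA they lie among dopamine neurons and inhibit them, and they also project out of the midbrain. Otx2 is a homeodomain factor that patterns the midbrain, Foxa2 is a forkhead factor of the floor plate and of the neurons that arise beside it, Pappa is a secreted protease that cuts IGF-binding proteins, Jag1 is a membrane-bound Notch ligand, Lgr5 is a receptor for R-spondins that strengthens Wnt signalling, and Megf11 is a cell-surface protein of the EGF-repeat family.

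The wells were selected on Otx2, Otx2os1, Pappa, Jag1, Lgr5, Neurod6, Cxcl12 and Pgm5, so the levels of these genes describe the selection and were not tested. In GENCODE on the mm10 mouse genome, Otx2 lies at chr14:48657677-48673819 on the minus strand and overlaps Otx2os1, at chr14:48668708-48870683 on the plus strand. Whether the counting used the strand is not given in the sources used here, so reads of this pair may not be told apart, and the rule sums them. Pappa lies at chr4:65124174-65357509, Jag1 at chr2:137081456-137116644, Lgr5 at chr10:115450311-115587780, Foxa2 at chr2:148042877-148046969 and Megf11 at chr9:64385626-64709205.

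Otx2 was counted in 84 of 94 members and Otx2os1 in 85. Pappa carried the rule in most members. It was counted in 88 of 94 members and reached the minimum of 4 counts alone in 73. Jag1 was counted in 46 members and reached 4 counts alone in 17, and Lgr5 was counted in 34 and reached 4 alone in 9. Pappa and Jag1 without Lgr5 was the most frequent combination, with 33 wells, followed by Pappa alone with 25 and Pappa and Lgr5 with 20. All 3 genes were counted together in 10 members. Of the genes on the other side of the rule, Neurod6 was counted in 6 members, and Cxcl12 and Pgm5 in none.

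The levels below are in CPM, the counts of a gene scaled to 1000000 counts of the summed wells of a class on a plate, without spike-in and mitochondrial counts. Pappa stood at 231, 370, 623 and 492 CPM in the members of the 4 E16 plates and at 305, 406 and 742 CPM in those of the 3 P0 plates, against a mean of 21.6 ± 5.19 CPM (SD, n = 7 plates) in the other kept wells. Otx2 stood at 385, 356, 471 and 463 CPM at E16 and at 79, 143 and 515 CPM at P0. The first and second P0 plates were thus low for Otx2, and the third was the highest of the 7. Jag1 stood at 51.6, 61.1, 124 and 65.8 CPM at E16 and at 16.9, 35.9 and 5.53 CPM at P0. Lgr5 stood at 27.3, 28.8, 29.2 and 97.3 CPM at E16 and at 56.4, 59.8 and 105 CPM at P0. By the sample titles, the 4 E16 plates all lay above the 3 P0 plates for Jag1. Lgr5 was highest on the third P0 plate and overlapped between the ages. Jag1 belongs to the rule, so its order by age was not tested. It had 138 counts in all 94 members, and the P0 values come from 5, 6 and 9 member wells. A second label in the names of the cells gives another age for 4 of these plates, and by it the ages overlap for Jag1, with E16 at 5.53 to 61.1 CPM and P0 at 35.9 to 124 CPM.

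**Figure D1:**
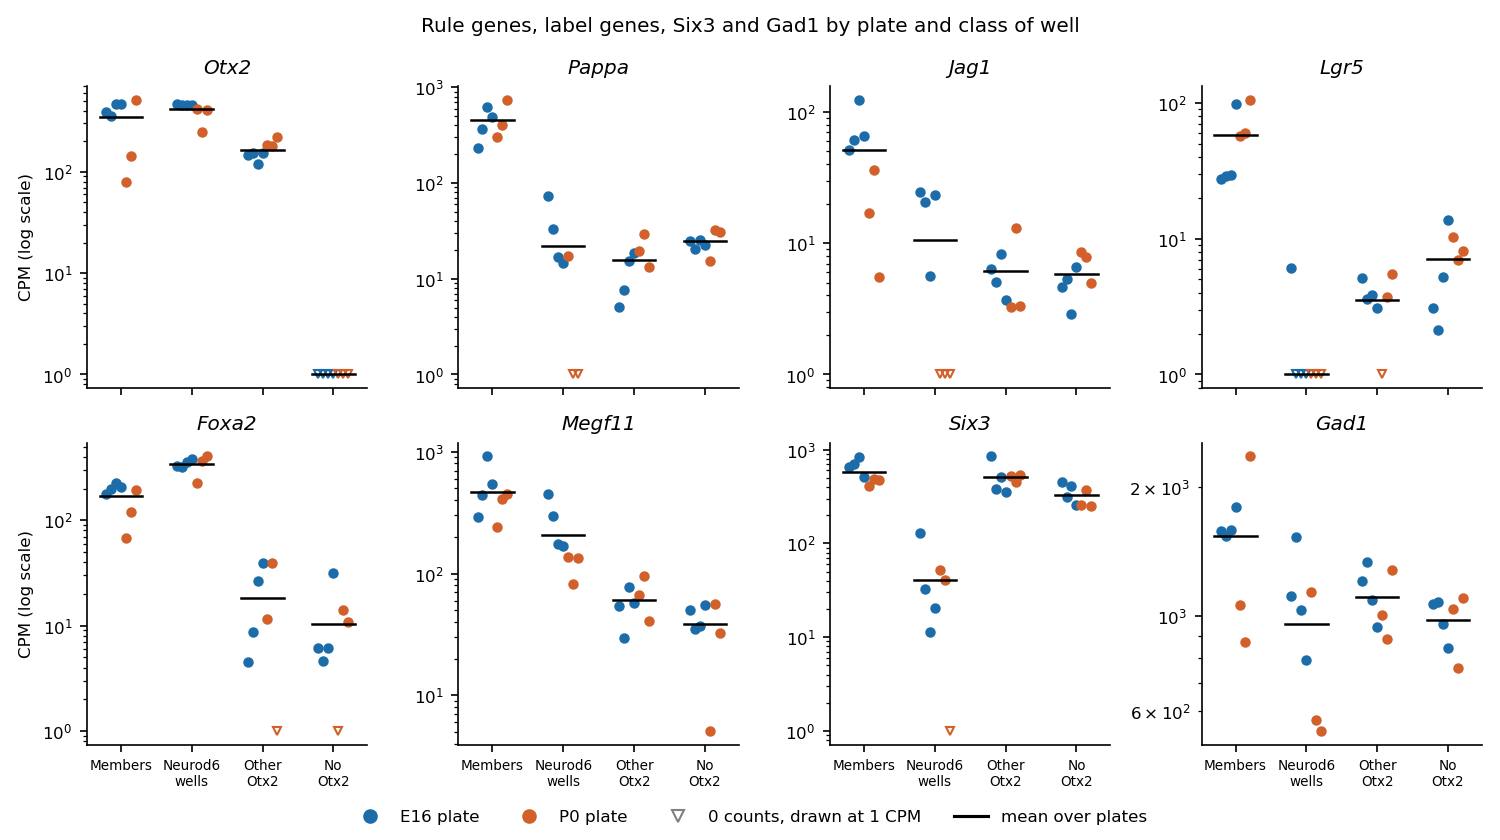
CPM (log scale) of Otx2, Pappa, Jag1, Lgr5, Foxa2, Megf11, Six3 and Gad1 in 4 classes of kept wells, 1 point per plate (blue E16, orange P0), with the mean over plates as a line. Foxa2 is high in members and in Neurod6 wells, while Six3 is high in members and low in Neurod6 wells.

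Foxa2 and Megf11 belong to the name given to the class but not to the rule. Foxa2 was counted in 76 of 94 members (80.9%), and Megf11 likewise in 76. In members Foxa2 stood at 176, 198, 224 and 208 CPM on the E16 plates and at 67.7, 120 and 194 CPM on the P0 plates. Its mean was 169 ± 55.8 CPM (SD, n = 7 plates) in members and 25.9 CPM in all other kept wells. Megf11 stood at 291, 439, 917 and 539 CPM at E16 and at 243, 406 and 448 CPM at P0, with a mean of 469 ± 221 CPM against 54.5 CPM in the other kept wells. For both genes the members of every plate lay above the mean of the other kept wells. Wells of different depth can differ in the share of wells with a count, so each well was also thinned to 4000 counts. Foxa2 was then found in a mean of 45.7% of member wells and 6.42% of the other wells per plate. The tdTomato and GFP plates, whose cells are of another sort, had Foxa2 in 35.9% of thinned wells and serve as no background for it.

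As a check of the cell type, the GABA genes were read in every plate. Gad1 stood at 1577, 1536, 1591 and 1794 CPM in the members at E16 and at 1061, 872 and 2358 CPM at P0, and was found in 98.7% of thinned members and in 1.81% of thinned wells of the tdTomato and GFP plates. Slc32a1 was at 259 ± 73.9 CPM in members and 236 CPM in the other kept wells, and Gad2 at 534 ± 98.3 against 568 CPM. Markers of other cells were then read in members. Pitx3 was at 0 and the dopamine enzyme Th had 2 counts, while the 8 dopamine neuron genes had 142 counts in all, 92 of them from Ddc, and summed to 68.8 CPM in members (22.1 to 121 over plates) and 59.6 CPM in the other kept wells (46.7 to 72.1). The 3 vesicular glutamate transporter genes had 17 counts, 1 from Slc17a6, none from Slc17a7 and 16 from Slc17a8, and summed to 12.7 CPM (0 to 45.1) against 9.65 CPM (2.07 to 24.0). The 3 serotonin genes had 5 counts and summed to 5.27 CPM (0 to 23.9) against 1.42 CPM, with Fev at 0. The 3 cholinergic genes were at 0. The 6 microglial genes had 7 counts (4.31 against 17.7 CPM in the other kept wells), with Aif1 and Csf1r at 0, and the 5 oligodendrocyte lineage genes had 3 counts (1.75 against 10.5 CPM), with Olig1, Olig2 and Sox10 at 0. The 5 endothelial genes had 4 counts (1.84 against 3.73 CPM), with Cdh5, Cldn5 and Kdr at 0. The 4 mural, 3 fibroblast and 5 blood genes had 3, 4 and 5 counts. The summed level of 12 progenitor and astrocyte genes was 392 CPM in members, from 273 to 509 CPM over plates, and 330 CPM in the other kept wells, from 173 to 976 CPM. Of that list 4 genes were tested, with a median of 0.67 log2 units beside -0.00194 over all genes. Vim and Sparcl1 of these were higher in members, where 2.57% of all genes were, by 1.75 ± 0.20 and 1.77 ± 0.35 log2 units (adjusted p = 2.13e-05 and 0.00463, edgeR's quasi-likelihood test). Their part in the results below was not tested. The sort measured no position, so the VTA in the name of the class comes from the study's Otx2 clusters and not from these counts.

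By the median count, members were deeper than the other kept wells on 6 of the 7 plates, with the widest gaps on the second P0 plate and E16 plate 1. The kept wells of a plate summed to between 1492824 and 5693208 counts. Median counts of member wells ran from 16908 to 38278 over the 7 plates. On the second P0 plate the 6 members had a median of 16908 counts and the other kept wells 7468, and 4 of those 6 members held more than 2 times the plate's median count. On E16 plate 1 the medians were 30049 and 20526 counts. Without the wells over that limit on any plate, 452 genes were called in the comparison with the other kept wells below, against 418 with them. The 4 VGAT plates to which the second label gives another age are E16 plates 3 and 4 and P0 plates 1 and 3, so every comparison of ages rests on the sample titles. The endings of this label also part the plates otherwise than the titled sort does. E16 plate 4 and P0 plate 3 end in the letter d, and the other plates, both tdTomato and GFP plates among them, end in s and a number. What these letters stand for is not given in the sources used here, and the sort was taken from the titles.

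Members made up 5.79%, 4.82%, 9.90% and 7.21% of the kept wells on the E16 plates and 11.4%, 2.74% and 5.26% on the P0 plates. The share was 6.93 ± 2.21% at E16 (SD, n = 4) and 6.46 ± 4.43% at P0 (n = 3). The difference of -0.477 percentage points was smaller than the spread between plates of either age (two-sided exact permutation test, p = 0.857), in a design whose smallest possible p is 0.0571. The highest and the lowest share both came from P0 plates, and the highest rests on 5 of 44 kept wells. The sign of the difference changed without E16 plate 3 (0.513 points) and without P0 plate 2 (1.38 points) or 3 (0.12 points). Since a rule on counts moves with depth, it was also applied to wells thinned to 4000 counts, with a minimum of 4, 3, 2 or 1. The difference was then -0.813, -1.34, -2.04 and -3.39 points (p from 0.171 to 0.571, the same exact test). At a minimum of 1 the shares were 6.92 ± 2.83% at E16 and 3.53 ± 1.04% at P0, and at a minimum of 4 the first P0 plate stood at 2.33%.

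**Figure D2:**
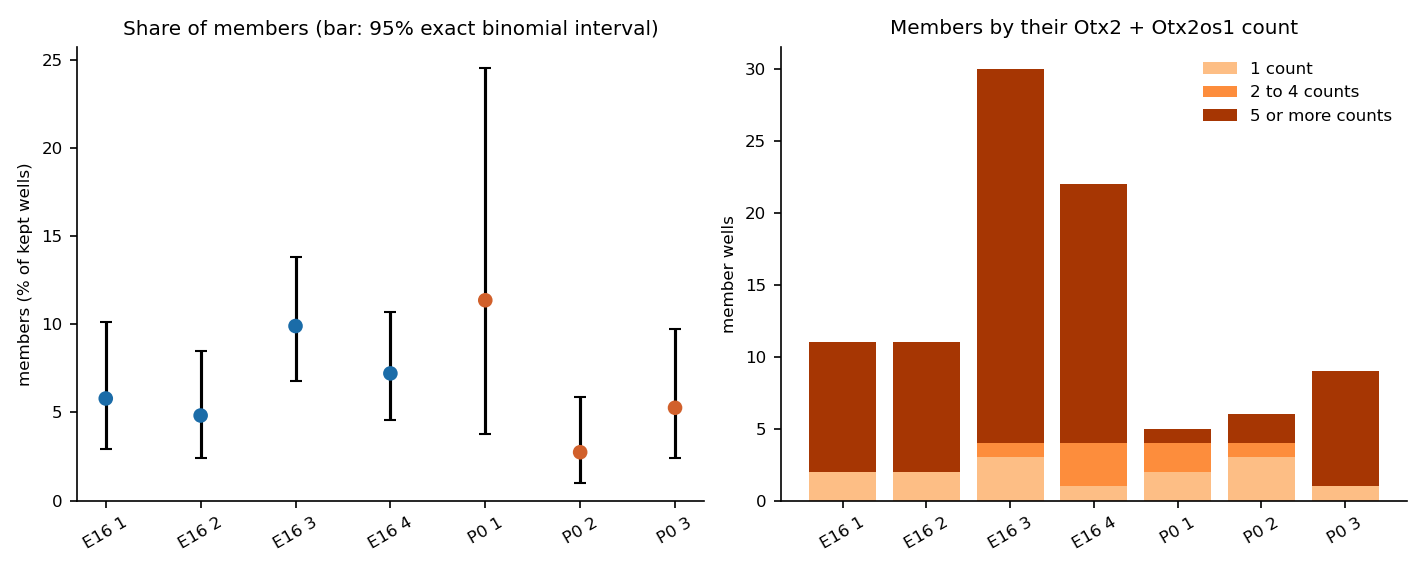
Left, members as a percentage of the kept wells of each plate with 95% exact binomial intervals, which cover counting error only. Right, member wells per plate stacked by their Otx2 and Otx2os1 count: 9, 9, 26 and 18 members of the E16 plates and 1, 2 and 8 of the P0 plates held 5 or more counts.

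The members were not uniform in their Otx2 signal. Of 94 members, 73 (77.7%) held 5 or more Otx2 and Otx2os1 counts, 7 held 2 to 4 and 14 held a single count. Foxa2 was counted in 91.8% of the members with 5 or more Otx2 counts, in 57.1% of those with 2 to 4 and in 35.7% of those with 1. The wells of the 3 groups had a median of 19562, 8378 and 25456 counts, and these shares were not matched for depth. Over the same 3 groups the level of Megf11 was 690, 143 and 103 CPM, that of the adhesion molecule Cdh6 was 2101, 572 and 230 CPM, and that of the transcription factor Nfib was 2002, 241 and 167 CPM. Wls, which carries Wnt proteins to the cell surface, was at 181 CPM with 5 or more counts and had no count in the 14 wells with 1. Six3 was present throughout, at 717, 375 and 400 CPM. Gata3 ran the other way, at 391, 420 and 663 CPM, while Dach1 stood at 416, 268 and 378 CPM and Lgr5 at 45.5, 152 and 50.0 CPM. This split was made after the values were seen and has no test.

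The wells on either side of the minimum of 4 counts were read as a description. The 17 wells just inside it, with a sum of exactly 4, had a median of 9 Otx2 and Otx2os1 counts, Foxa2 in 12 wells (70.6%) and Megf11 at 241 CPM. The 24 wells just outside, with a sum of 3, had a median of 1, Foxa2 in 4 wells (16.7%) and Megf11 at 56.1 CPM. One step further on each side the values lay closer together. The 12 wells with a sum of 5 had a median of 4.5, Foxa2 in 6 wells (50.0%) and Megf11 at 133 CPM, and the 30 wells with a sum of 2 had a median of 1.5, Foxa2 in 4 wells (13.3%) and Megf11 at 156 CPM.

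Members with Jag1 and members with Lgr5 were set side by side, on a split that uses genes of the rule, was chosen after the values were seen and has no test. Jag1 without Lgr5 was found in 35 members and Lgr5 without Jag1 in 23, while 11 held both and 25 held neither. Nfib stood at 3124 CPM in the members with Jag1 and 681 CPM in those with Lgr5, Nfia at 466 and 65.6 CPM, the actin-binding protein gene Palld at 368 and 49.2 CPM, and Tal1, a selector of GABAergic fate, at 366 and 140 CPM. Each of these 4 genes, and Wls, Cdh6, Six3 and Megf11, was higher in the Jag1 wells on 6 of the 6 plates that held both kinds. Foxa2 stood at 235 and 162 CPM and was higher in the Jag1 wells on 4 of 6 plates. The genes were picked for this description, and the share of all genes higher on all 6 plates was not counted. Ebf3, a factor of differentiating neurons, stood at 280 CPM in the Jag1 wells and 490 CPM in the Lgr5 wells and was higher in the Jag1 wells on only 2 of 6 plates. The median Otx2 and Otx2os1 count was 27 in the Jag1 wells and 9 in the Lgr5 wells. Among members with 5 or more Otx2 counts, 30 with Jag1 and 16 with Lgr5, Nfib stood at 3441 and 908 CPM, Nfia at 506 and 82.6 CPM, Palld at 412 and 23.6 CPM and Tal1 at 388 and 139 CPM. The 11 members with both genes had a median of 23 Otx2 and Otx2os1 counts, with Nfib at 1374 CPM, Nfia at 92.5 CPM, Palld at 162 CPM and Tal1 at 254 CPM.

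Whether members resembled each other on genes that the rule did not use was asked with nearest neighbours. Each well was compared over 2871 variable genes, without the rule's genes, Foxa2 and Megf11, and its 15 nearest wells were taken from the other plates only. In members, 47.8 ± 20.6% of neighbours were members (SD, n = 7 plates), and in the other kept wells 3.22 ± 0.948%. By plate the members' value was 46.1%, 43.0%, 65.3% and 63.6% at E16 and 18.7%, 25.6% and 72.6% at P0. The members' value was the higher in 7 of 7 plates, by a mean of 44.6 percentage points (two-sided exact sign-flip permutation test over plates, p = 0.0156, the smallest that 7 plates can give). The rule and this comparison were chosen with earlier results of these data known. A higher value in members could thus be foreseen on every plate, and the p-value is no independent evidence of resemblance. The sizes of the shares are given as a description. The first and second P0 plates, where 1 of 5 and 2 of 6 members held 5 or more Otx2 counts, had the lowest shares in members. Members and other wells may also differ in depth, and with all wells thinned the difference was 43.8 points.

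**Figure D3:**
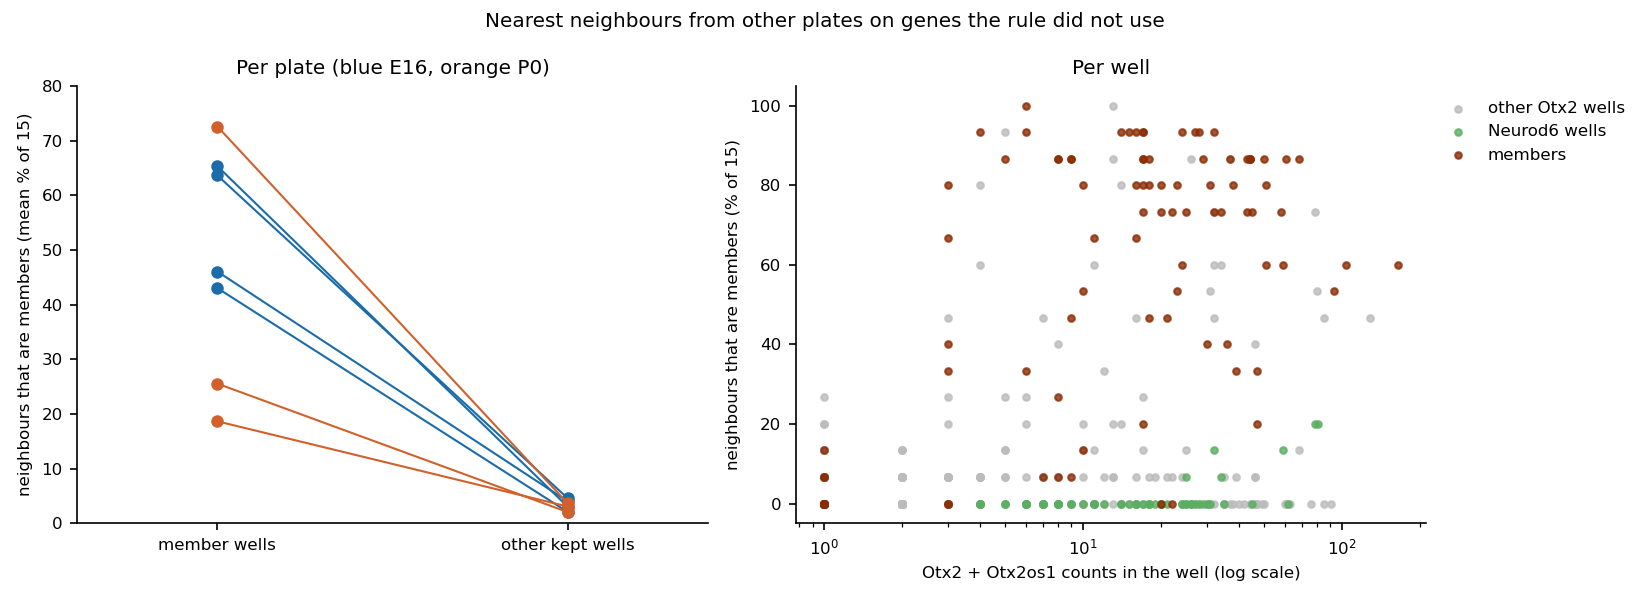
Left, the mean percentage of a well's 15 nearest neighbours that were members, for member wells and other kept wells of each plate (blue E16, orange P0, lines join a plate). Right, the same percentage per well against its Otx2 and Otx2os1 count (log scale): members with 1 count lie low, and 15 wells outside the rule reach 50% or more.

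The remaining neighbours of members were 23.1% other Otx2 wells, 26.2% wells without Otx2 and 2.90% Neurod6 wells, which are the wells with Otx2 in which Neurod6, Cxcl12 and Pgm5 summed to at least 4 counts and to more than Pappa, Jag1 and Lgr5. Among single wells, 59 of 94 members had 50% or more member neighbours, and all 59 held at least 2 Otx2 counts. Of the 15 members without any member neighbour, 11 held 1 Otx2 count. No Neurod6 well reached 50%, and 55 of the 62 had no member neighbour. Outside the rule, 15 other Otx2 wells reached 50% or more. They held a median of 26 Otx2 and Otx2os1 counts and at most 3 counts of Pappa, Jag1 and Lgr5, with none in 5 of them. These wells were not members and stayed in the comparison groups.

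Members were then compared with the other kept wells of their plates over all genes, with counts summed per plate and class and the plate as a block. Of 9897 genes tested, 254 were higher (2.57%) and 164 lower (1.66%) in members at an adjusted p under 0.05 (edgeR's quasi-likelihood test, Benjamini-Hochberg). With wells thinned to 4000 counts 199 of 3310 genes tested were called in all. Leaving out 1 plate gave from 232 calls (without E16 plate 3, which holds 30 members) to 589 (without P0 plate 1). The 12 genes of largest change in each direction were taken by rule from 142 higher and 97 lower genes that had at least 20 CPM in the higher group and the same direction on every plate, and 11 higher and 12 lower genes of these are reported here.

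Cdh6, Palld and Wls led the higher genes reported here. Cdh6, a type II cadherin at chr15:13028701-13173675, stood at 1435, 1309, 2364 and 1928 CPM in the members at E16 and at 339, 884 and 1666 CPM at P0, against 62.8 to 191 CPM in the other kept wells. Every member value lay above every value of the other wells, and Cdh6 was higher by 3.46 ± 0.18 log2 units (SE, adjusted p = 2.33e-09, edgeR's quasi-likelihood test). Palld stood at 185, 183, 229 and 155 CPM in members at E16 and at 197, 131 and 155 CPM at P0, with a mean of 17.6 CPM in the other wells (3.40 ± 0.15, adjusted p = 4.68e-10). The Palld values of both ages overlapped, and so did those of Cdh6, whose first P0 plate was the lowest. Wls stood at 103, 144, 188 and 179 CPM at E16 and at 39.5, 35.9 and 155 CPM at P0, against a mean of 17.6 CPM (2.98 ± 0.25, adjusted p = 9.15e-07). The growth factor gene Igf1, whose product is released from the binding proteins that Pappa cuts, stood at 48.5, 176, 208 and 321 CPM at E16 and at 102, 430 and 531 CPM at P0, against a mean of 40.0 CPM (2.63 ± 0.19, adjusted p = 1.65e-07). The other genes of this group were Ccnjl, the lipid enzyme Ugt8a, the ephrin receptor Epha8, the heparan sulphate enzyme Ndst3, Pdlim5 and the transcription factors Ebf3 and Nfib, higher by 2.06 to 2.78 log2 units.

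**Figure D4:**
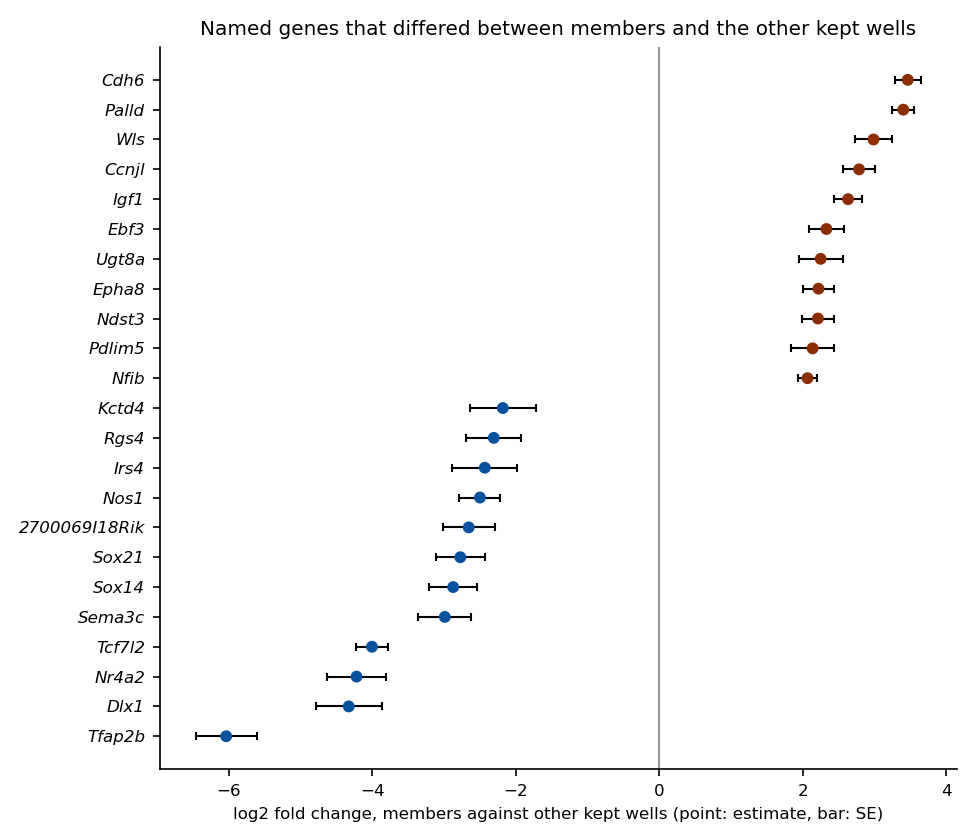
Fitted log2 fold change of members against the other kept wells for the 11 higher and 12 lower named genes (point, estimate; bar, SE). Tfap2b, with 2 counts in members, has an estimate that depends on the fit's prior count and is given as a count ratio in the text.

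Of the 12 genes that were lower in members, Tfap2b, Dlx1, Nr4a2, Tcf7l2, Sox14 and Sox21 encode transcription factors. The share of such genes over all genes was not counted. Tcf7l2, a Wnt effector of the thalamus and pretectum, stood at 69.8, 7.19, 34.4 and 21.0 CPM in members at E16 and at 11.3, 47.8 and 11.1 CPM at P0, against a mean of 429 CPM in the other kept wells, lower by 4.01 log2 units (log2 fold change -4.01 ± 0.22, adjusted p = 3.77e-09, edgeR's quasi-likelihood test). Tfap2b had 2 counts in all members and 1939 in the other wells, a ratio of pooled CPM of 0.0125 (95% exact interval 0.00151 to 0.0452, counting error only). Nr4a2, the orphan receptor of dopamine neurons, had 6 counts in members and a mean of 3.66 CPM against 58.0 CPM, and Dlx1, a forebrain GABAergic factor, had 4 counts. Sox14, a factor of tectal and thalamic GABAergic neurons, was at 13.4 against 81.7 CPM, and Nos1, the neuronal nitric oxide synthase, at 11.4 against 74.3 CPM. Sema3c, Sox21, 2700069I18Rik, Irs4, Rgs4 and Kctd4 completed the group, with log2 fold changes of -2.99 to -2.18. Nr4a2 was not called when the rule's minimum was 3, Dlx1 not without the plate block, and Kctd4 not without E16 plate 3.

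The gene lists of the study's own classes, which the study chose on these samples and which are not independent evidence of direction, were read as counts. Of the 13 further genes of its GABA-VTA list, all tested, 9 were higher and 2 lower in members. Over all genes 2.57% were higher and 1.66% lower. The list had a median log2 fold change of 0.76 beside -0.00194 over all genes. The nuclear factor I genes Nfib and Nfix were higher by 2.06 ± 0.13 and 1.65 ± 0.12 log2 units (adjusted p = 1.46e-08 and 2.17e-07). Nfix stood at 312, 324, 482 and 410 CPM in members at E16 and at 355, 394 and 343 CPM at P0, against 89.1 to 185 CPM in the other wells. Dach1, a transcriptional co-regulator, stood at 437, 306, 526 and 371 CPM at E16 and at 237, 275 and 360 CPM at P0, against 55.4 to 148 CPM (1.95 ± 0.15, adjusted p = 2.72e-07, edgeR's quasi-likelihood test). For Nfix and Dach1 no member plate overlapped the other wells. Prox1, a homeodomain factor, was higher by 2.11 ± 0.31 (adjusted p = 0.000314), although the first P0 plate stood at 5.64 CPM in members and 37.4 CPM in the other wells. The adhesion gene Pcdh9, Tal1, 9030622O22Rik, Gad1 and Nfia were the others that were higher, and Tcerg1l and Gata3 were lower. The calls of Nfia (adjusted p = 0.047), Tcerg1l (0.0469) and Gata3 (0.0356) were each lost on leaving out several single plates, E16 plates 1 and 3 among them. Satb1 and Npas3 had fold changes of 0.01 and 0.09 log2 units and were not called.

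**Figure D5:**
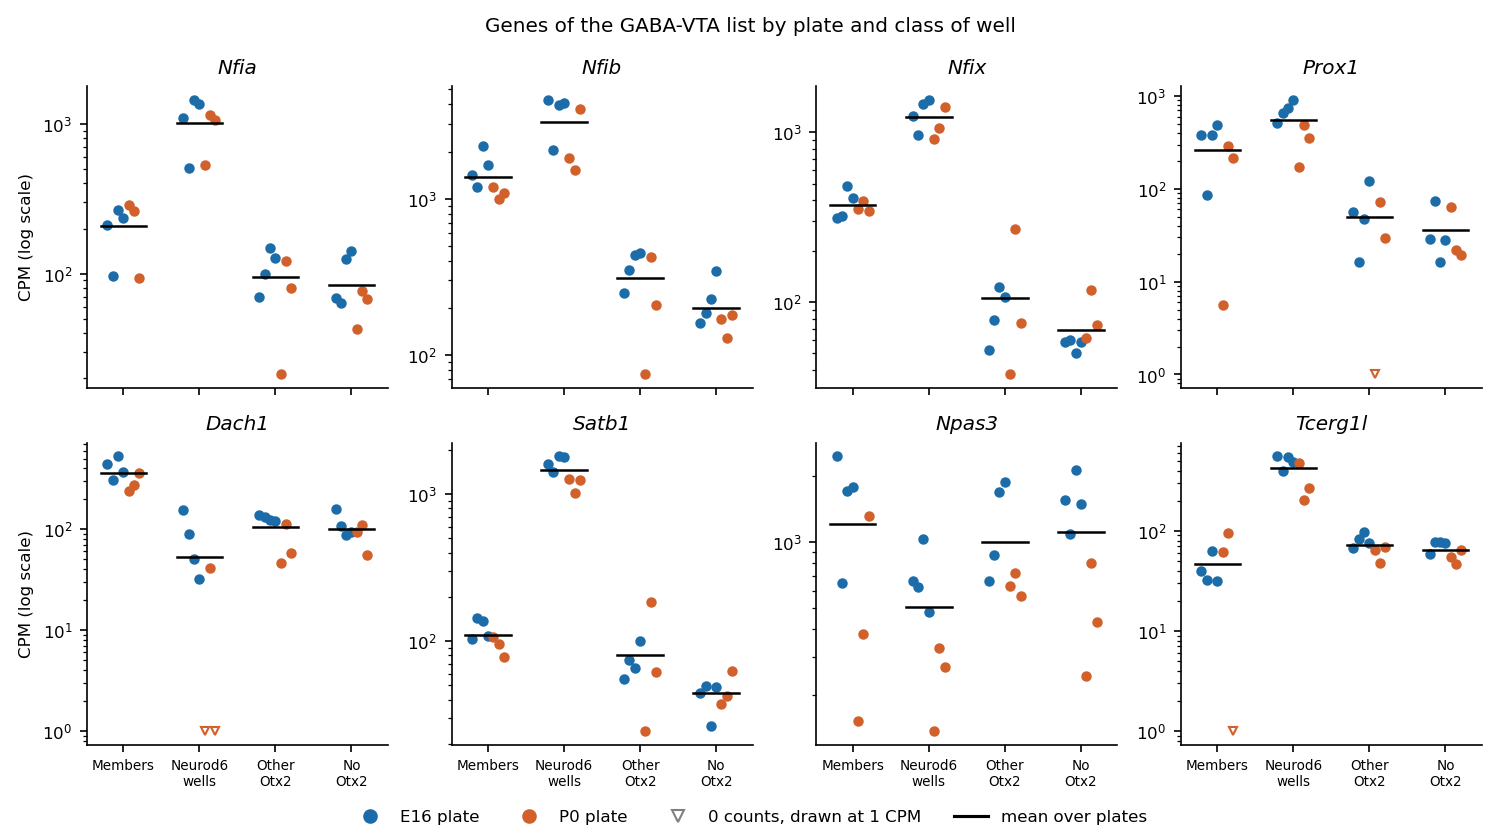
CPM (log scale) of 8 genes of the GABA-VTA list in 4 classes of kept wells, 1 point per plate (blue E16, orange P0), with the mean over plates as a line. Dach1 is highest in members, Satb1 and Tcerg1l are high in Neurod6 wells alone, and Nfib, Nfix and Prox1 are high in both classes.

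Of 5 genes of the study's SNr-1 list (substantia nigra pars reticulata) reported here, 4 were tested and all 4 were lower, with a median of -2.27: the paired-box factor Pax5, Sox21, Irs4 and Bcl11b. The share over all genes was 1.66% lower and 2.57% higher, and their median -0.00194. Of its SNr-2 list, all 6 were tested with a median of -0.91, 3 were lower (the forkhead factor Foxp2, Fign and Tcf7l2) and Six3 was higher. Foxp2 and Fign were not called with a rule minimum of 3, nor Fign without E16 plate 3. Six3, a homeodomain factor at chr17:85613608-85629302 that overlaps Six3os1 on the other strand, was higher by 0.64 ± 0.13 log2 units (adjusted p = 0.00573, edgeR's quasi-likelihood test). The call of Six3 was lost with a rule minimum of 6 and without the plate block. Foxp2 stood at 312 and 147 CPM in the members of the first and second E16 plates and between 15.5 and 23.9 CPM on the other 5, so members of different plates did not share its level.

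The next lists stand beside the same shares over all genes, 2.57% higher and 1.66% lower, and the median of -0.00194, with list medians of 0.02 (GABA synthesis and transport), -0.32 (GABA selector factors) and -0.05 (floor plate and dopamine lineage). Of 6 GABA synthesis and transport genes, Gad1 was higher in members (0.60 ± 0.12 log2 units, adjusted p = 0.00577, 7 of 7 plates) and the GABA-degrading enzyme gene Abat was lower (-0.81 ± 0.21, adjusted p = 0.0311, edgeR's quasi-likelihood test), the latter lost without any 1 of 5 plates: E16 plate 1, 2, 3 or 4 or P0 plate 3. Of the 12 GABA selector factors 8 were tested. Tal1 was higher (0.65 ± 0.12, adjusted p = 0.00193), Gata3 and Sox14 were lower, and Gata2 (-0.04 ± 0.15) was not called. The call of Gata3 was lost without E16 plate 1, 2 or 3. Among 16 factors of the floor plate and dopamine lineage, of which 8 were tested, Ebf1 (1.60 ± 0.28, adjusted p = 0.0015) and Ebf3 (2.33 ± 0.24, adjusted p = 9.04e-06) and the ligand gene Wnt5a (1.53 ± 0.39, adjusted p = 0.0336) were higher and Nr4a2 was lower. Ebf1 stood at 473, 216, 633 and 805 CPM in members at E16 and at 56.4, 598 and 393 CPM at P0, and only the first P0 plate lay below its other wells, at 132 CPM. Lmx1a, a floor plate factor, had 1 count in all members.

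The pathways of the rule's own ligands and receptors were read from lists without the rule's genes, whose medians stand beside -0.00194 for all genes and whose calls stand beside 2.57% higher and 1.66% lower. Of the Notch pathway, 19 of 35 genes were tested, none was higher and the contactin gene Cntn1 was lower (-0.50 ± 0.12), with a list median of -0.06. Cntn1 was not called without E16 plate 3 or 4 or P0 plate 3. Of the Wnt and R-spondin list, 13 of 41 were tested and the median was 0.34. The receptor gene Fzd1 (1.17 ± 0.17, adjusted p = 0.000341, edgeR's quasi-likelihood test), the extracellular modulator gene Sfrp1 (1.11 ± 0.26) and Wnt5a were higher, and Ctnnb1, the gene of beta-catenin (-0.77 ± 0.13, adjusted p = 0.000928), and Tcf7l2 were lower. Sfrp1 was not called without E16 plate 2, 3 or 4, nor Wnt5a without E16 plate 4 or P0 plate 2 or 3. Of the IGF and pappalysin list, 11 of 18 were tested and the median was 0.21. Igf1, Igfbp5, an IGF-binding protein that Pappa can cut (1.94 ± 0.28, adjusted p = 0.000268), and Stc1, the gene of an inhibitor of Pappa (1.68 ± 0.27, adjusted p = 0.000901), were higher. Igfbp4, another substrate of Pappa, was lower (-1.31 ± 0.30, adjusted p = 0.0139), a call lost without E16 plate 2 or 4, and so was Irs4. Igfbp5 stood at 1201, 457, 800 and 834 CPM in members at E16 and at 192, 430 and 758 CPM at P0, against 104 to 302 CPM in the other wells. The first P0 plate alone had less Igfbp5 in its members than in its other wells.

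Guidance and adhesion genes moved in both directions, beside 2.57% of all genes higher and 1.66% lower. Of the Slit, Robo, Eph, ephrin and semaphorin list, 34 of 38 were tested, 4 were higher (Slit3, Robo2, Epha8 and Sema6a), 3 were lower (Slit2, Sema3c and Plxna4) and the median was -0.14. Robo2, a receptor for Slits, stood at 1659, 1471, 1956 and 1675 CPM in members at E16 and at 1168, 932 and 1461 CPM at P0, and was higher than in the other wells on 7 of 7 plates (0.97 ± 0.09 log2 units, adjusted p = 2.1e-06, edgeR's quasi-likelihood test). Its ligand gene Slit2 was lower (-1.33 ± 0.30, adjusted p = 0.0148) and Slit3 was higher (1.02 ± 0.23, adjusted p = 0.012). Slit2 was not called without E16 plate 3 or 4, nor Slit3 without E16 plate 2 or 3. Of 14 netrin and receptor genes 11 were tested, of which the receptor gene Unc5b was higher (1.77 ± 0.38, adjusted p = 0.00901) and Ntng1 was lower. Unc5b was not called without E16 plate 3 or 4, nor Ntng1 without E16 plate 1 or 3. Of the cadherins and other adhesion genes, 29 of 31 were tested, with 6 higher, 6 lower and a median of -0.37. Cdh13, a cadherin without a cytoplasmic tail, was higher (1.44 ± 0.15, adjusted p = 1.1e-05) and Pcdh11x was lower (-1.17 ± 0.14, adjusted p = 3.64e-05). Pcdh11x was not called with a rule minimum of 3 or without the plate block. Of the other calls, those of Cdh2, Cdh18, Cdh20, Pcdh10 and Pcdh17 were lost on leaving out single plates: Cdh2 without E16 plate 4, Pcdh10 without E16 plate 3, and Cdh18, Cdh20 and Pcdh17 without any 1 of 4 or more plates, E16 plate 1 among them.

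Against the 62 Neurod6 wells, the comparison could use the 5 plates with at least 3 wells of each class (4 of E16 and the second of P0). Of 5675 genes tested, 225 were higher (3.96%) and 163 lower (2.87%) in members, and without E16 plate 4 there were 238 calls in all. Six3 was higher and Satb1 lower in members. Six3 stood at 649, 698, 843 and 508 CPM in members at E16 and at 406, 490 and 470 CPM at P0, and in Neurod6 wells at 129, 32.7, 11.3 and 20.3 CPM and at 51.7, 41.0 and 0 CPM (4.00 ± 0.34 log2 units, adjusted p = 2.28e-07, edgeR's quasi-likelihood test). Satb1, a chromatin organiser, stood at 103, 144, 138 and 108 CPM in members at E16 and at 107, 95.6 and 77.5 CPM at P0, and in Neurod6 wells at 1605, 1420, 1809 and 1801 CPM and at 1275, 1024 and 1243 CPM (-3.68 ± 0.19, adjusted p = 1.01e-09). For neither gene did any plate of a class reach the range of the other class.

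The other genes named by the rule that were higher than in Neurod6 wells were Ndst3, the vesicle protein gene Sv2c, Igfbp5, Tshz2, Six3os1, Gm45455 and Gm45341, by 3.42 to 4.01 log2 units. Those that were lower were Nos1, Plekhg1, the vesicle protein gene Sv2b, the zinc-finger factor Zeb2, Plpp3, 5830444F18Rik and Tcerg1l, with log2 fold changes from -5.00 to -3.32. The selector factors Gata2 (2.42 ± 0.46), Gata3 (2.21 ± 0.23) and Lhx1 (2.80 ± 0.45) were higher in members, 3 of 6 tested with none lower. The list median was 1.34 beside 0.0106 over all genes. Over all genes 3.96% were higher and 2.87% lower, and these shares also stand beside the GABA-VTA counts against Neurod6 wells below. Ddc, the aromatic amino acid decarboxylase, was lower (-2.76 ± 0.28, adjusted p = 1.7e-06, edgeR's quasi-likelihood test), with means over 7 plates of 41.5 CPM in members and 357 CPM in Neurod6 wells. Against the other Otx2 wells Ddc was higher in members (1.62 ± 0.40, adjusted p = 0.0292, 5 of 7 plates), a call lost without E16 plate 1 or 2. Of the 13 GABA-VTA genes 5 were higher and 7 lower, with a median of -1.01: Dach1, Pcdh9, Gata3, Npas3 and Gad1 against Satb1, Nfia, Nfib, Nfix, Prox1, Tcerg1l and 9030622O22Rik. The call of Gad1 (adjusted p = 0.0357) was lost without E16 plate 1, 3 or 4 or P0 plate 2, that of Npas3 without E16 plate 4, and that of Prox1 with a rule minimum of 6. Nfib, Nfix and Prox1 therefore stood between the classes, above the other kept wells and below the Neurod6 wells. Robo2 was higher in members by 2.85 ± 0.20 and the ephrin receptor gene Epha6 by 2.42 ± 0.22, while Epha5 was lower (-2.12 ± 0.22).

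Against the 452 other Otx2 wells, 185 of 8449 genes were higher (2.19%) and 123 lower (1.46%) in members, and the total was 164 without E16 plate 3 and 440 without P0 plate 1. These comparisons share the member wells, so their values are given side by side. Cdh6 was higher by 3.14 ± 0.20, Palld by 3.54 ± 0.17 and Prox1 by 2.55 ± 0.16 log2 units, and 9030622O22Rik, Ccnjl, Kcnk9, Igf1 and St18 by 2.55 to 2.96. Tcf7l2 was lower (-4.52 ± 0.26, adjusted p = 1.28e-08, edgeR's quasi-likelihood test), as were Nr4a2, Sema3c, Sox14, 2700069I18Rik, Nos1 and the calcium-binding protein gene Calb2. Six3 was not called here (0.24 ± 0.15, adjusted p = 0.531), with means of 581 ± 155 CPM in members and 516 CPM in the other Otx2 wells. Of the 13 GABA-VTA genes 9 were higher and 1, Gata3, lower, with a median of 1.13 beside -0.00121 over all genes. Gata3 was not called without any 1 of the E16 plates, nor Nr4a2 with a rule minimum of 3. The other Otx2 wells with 5 or more Otx2 counts, 114 in all, had Foxa2 in 25.4% of wells, Tcf7l2 at 1038 CPM, Cdh6 at 418 CPM and Nfib at 877 CPM, where the 73 members with 5 or more had 91.8%, 33.8, 2101 and 2002 CPM. Tal1 stood at 227 CPM in those wells and 266 CPM in these members, and Six3 at 874 and 717 CPM. This split has no test.

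Ages were compared within members over 6273 genes. At an adjusted p under 0.05, 0 genes (0.0%) differed between the 3 P0 and the 4 E16 plates in edgeR's quasi-likelihood test. At an unadjusted p under 0.05 there were 673, and DESeq2 called 9. On simulated data this edgeR fit found 26.2% of changes of 1 log2 unit and 90.7% of changes of 2 units. A count of 0 therefore does not show that the ages were alike. The fit of the difference in age effect, given next, found 11.7% and 46.4% of such changes. A difference in age effect between members and other kept wells was called for 1 of 11004 genes (0.00909%), with 541 at an unadjusted p under 0.05. This gene was Hs3st4, a heparan sulphate sulphotransferase, at 288, 144, 330 and 284 CPM in members at E16 and at 11.3, 59.8 and 60.9 CPM at P0, against 188, 165, 317 and 254 CPM and 135, 239 and 211 CPM in the other kept wells. Its age effect was lower in members by 2.44 log2 units (-2.44 ± 0.35, adjusted p = 0.0203), and the call was lost without E16 plate 3 or 4 or P0 plate 2, and in 8 of 18 settings in all. With the age taken from the second label of the cell names its sign turned (0.31).

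Sequence is shown for the promoters in which the word bound by OTX factors was found, since Otx2 defines the members. RefSeq promoters of GRCm38.p6, 250 bases before to 50 after a start, were searched on both strands for TAATCC, a core word of OTX factors. The same windows were searched for the forkhead word TGTTTAC, which fits factors such as Foxa2. The word of the GATA family searched beside them was AGATAA, and none of the 3 words is contained in another. TAATCC was in 7.06% of 32851 promoters, and 8.14% of 27025 genes had it in at least 1 promoter. Of the 11 named genes that were higher in members than in the other kept wells, 10 had an entry, and the OTX word was in 1 of them, Ndst3, and the other words in none. Of the rule and label genes and Six3, 4 had an entry, and the OTX word was in 1, Otx2 itself, and the GATA word in 2. Over all genes the GATA word was in 12.7% and the forkhead word in 4.05%. The sequences run 5′ to 3′ along the gene, with the OTX word, read on the opposite strand, in capitals, at 211 bases before the start in Otx2 (chr14:48665060-48665359, minus strand) and 17 bases after it in Ndst3 (chr3:123619401-123619700, minus strand).
Otx2 promoter: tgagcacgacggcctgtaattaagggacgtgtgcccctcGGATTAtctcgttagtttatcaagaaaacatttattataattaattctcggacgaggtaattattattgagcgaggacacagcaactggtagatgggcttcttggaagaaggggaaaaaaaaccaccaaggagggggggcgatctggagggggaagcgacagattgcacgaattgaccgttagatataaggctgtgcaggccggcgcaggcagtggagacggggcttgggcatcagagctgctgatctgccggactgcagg
Ndst3 promoter: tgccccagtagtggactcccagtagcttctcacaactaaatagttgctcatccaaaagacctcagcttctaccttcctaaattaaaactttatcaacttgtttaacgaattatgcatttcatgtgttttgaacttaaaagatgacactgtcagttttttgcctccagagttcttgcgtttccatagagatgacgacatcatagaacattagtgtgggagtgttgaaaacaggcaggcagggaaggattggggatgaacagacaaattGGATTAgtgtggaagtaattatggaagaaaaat
These are too few genes to compare with the share in all genes, and a match is not a binding site. Ndst3 stood at 288, 327, 661 and 610 CPM in members at E16 and at 192, 95.6 and 399 CPM at P0, with a mean of 83.6 CPM in the other kept wells and 26.3 CPM in Neurod6 wells. Its members were above the other wells on each of the 7 plates (2.21 ± 0.22 log2 units, adjusted p = 6.43e-06, edgeR's quasi-likelihood test).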

How the data were processed

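Cells were sorted into 384-well plates and sequenced with CEL-seq2. Per the file headers and values, the authors deposited expected counts per gene and well, that is, unique molecular identifiers corrected for collisions, and 51.7% of values above 0 were not whole. STAR and mm10 are named in the submitters' processing notes. Here each count was rounded, and entries that share a gene symbol were kept apart. ERCC and mitochondrial counts were left out of library sizes, and wells were kept by the rule given above. The members, gene lists and tests were chosen with earlier results of these data known.

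For tests, wells were summed per plate and class, with at least 3 wells per sum, genes were filtered with edgeR's filterByExpr, and edgeR 4.0.16 (TMM, quasi-likelihood test, plate as block) was run in R 4.3.3 with Benjamini-Hochberg adjustment over all genes. Named genes were those of largest fold change among genes past an adjusted p of 0.05 with a mean of 20 CPM or more in the higher group and the same sign on every plate, 12 per direction against the other wells and 8 elsewhere. A few genes that met these rules or stood on a list are not reported here. Neighbours used scanpy 1.11.5 and 30 principal components. DESeq2 1.42.0, other filters, thinning to 4000 counts and left-out plates were alternatives. The script was tested on simulated data. No doublet caller was run, since plates were sorted 1 cell per well. Well barcodes are shared by design, 383 well numbers occurring on all 9 plates. The numbers of the E16 and P0 plates did not pair them (correlations of 0.0067, -0.0422 and -0.0203).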

Additional observations from a re-analysis of the deposited data

Results flagged for a closer look

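In 51 groups of 4 E16 plates checked for a plate far from the others, 4 genes were flagged, and chance flags about 1 group in 20. The values here are TMM-normalised CPM in members, which differ slightly from the plain CPM of the report. Epha8 stood at 149 CPM on E16 plate 3 against 71.3 to 80.7 on the others, and Lgr5 at 103 CPM on E16 plate 4 against 28.8 to 32. Otx2os1 stood at 391 CPM on E16 plate 2 against 944 to 993, and Plpp3 at 44.9 CPM on E16 plate 1 against 0 to 2.78.

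The age effect of Hs3st4 differed between members and other kept wells by -2.44 log2 units in edgeR's quasi-likelihood test (adjusted p = 0.0203). Mean log2 ratios of members to other wells were 0.21 at E16 and -2.42 at P0.

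The tdTomato and GFP plates entered no test. On them the rule was met by 6 of 304 kept wells at E16 (1.97%, where a count of 0 would allow up to 0.987%) and by 2 of 271 at P0 (0.738%). Gad1 was at 0 CPM in these 6 wells and in these 2 wells.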

How the results depend on the processing

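Counts of called genes moved with the filter and the depth. The main fits called 418 of 9897 genes tested against the other kept wells, 388 of 5675 against Neurod6 wells and 308 of 8449 against other Otx2 wells. Without a filter on low counts these were 822 of 30537, 585 of 20282 and 690 of 26650. With wells thinned to 4000 counts they were 199 of 3310, 154 of 976 and 118 of 2491, so the number tested also moved. Without the plate block the last was 187 of 8449. Leaving out 1 plate gave 232 to 589, 238 to 390 and 164 to 440 calls. For age within members the count was 9 with DESeq2 and 135 of 19599 genes tested without the filter. It was 7 with spliced counts, 2 with a rule minimum of 3 and 0 to 6 on leaving out a plate. It was 0 with the replicate number as a block (436 at an unadjusted p under 0.05). The number of genes whose age effect differed in members was 2 with DESeq2 and 40 of 30537 tested without the filter. It was 8 with a rule minimum of 6, 2 with a minimum of 3, 0 of 4391 with thinned wells and 0 to 18 on leaving out a plate. A pair of settings was chosen after seeing the data: with at least 2 Otx2 and Otx2os1 counts this number was 8, and with the age taken from the second label of the cell names it was 0. The cause of these changes was not tested.

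Against Neurod6 wells, Cdh18 (-0.02) and Pcdh15 (-0.22) changed sign with a rule minimum of 6 and Sema6d (-0.11) with spliced counts. Hs3st4 changed sign with the second label (0.31). The difference in the share of members between ages changed sign with a rule minimum of 3 (0.245 points) and on leaving out plates (-2.93 to 1.38 points, 0.513 without E16 plate 3, 1.38 without P0 plate 2, 0.12 without P0 plate 3). It was -0.383 points with the replicate number as a block. With wells thinned to 4000 counts it stayed negative, from -0.813 points at a minimum of 4 to -3.39 at a minimum of 1. The neighbour difference kept its sign in the alternatives run, from 37.6 to 49.6 points on leaving out a plate. Of the genes named or listed, 42 of 85 against the other kept wells, 50 of 81 against Neurod6 wells and 34 of 66 against other Otx2 wells passed the threshold in every alternative that tested them, and 32, 46 and 26 of these genes were not tested in all alternatives. Members number 5, 6 and 9 on the P0 plates, which limits what can be read from age.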

Other observations

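Neuropeptide and receptor genes, from lists chosen with earlier results known, also differed between members and the other kept wells. Of 20 neuropeptide genes 5 were tested, with 1 higher, 3 lower and a list median of -1.05. Over all genes 2.57% were higher and 1.66% lower, with a median of -0.00194. Penk, the enkephalin precursor, was higher in members (1.54 ± 0.27 log2 units, adjusted p = 0.00172, edgeR's quasi-likelihood test), at 106, 158, 255 and 203 CPM at E16 and at 28.2, 59.8 and 376 CPM at P0. On the first and second P0 plates its members lay below the other wells, at 43.8 and 129 CPM. Npy was lower (-1.72 ± 0.25, adjusted p = 0.000335), on 7 of 7 plates. Sst and Pnoc were lower with adjusted p of 0.0165 and 0.0421, and E16 plate 4 held 558 CPM of Sst in its members against 16.9 to 67.1 CPM on the others. The calls of Sst and Pnoc were lost on leaving out single plates, E16 plates 1 and 3 among them.

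Of 16 ionotropic glutamate receptor genes tested 4 were higher (Gria1, Grik1, Grik3 and Grid1) and 1 lower (Gria2), beside 2.57% and 1.66% of all genes. The call of Gria1 held in the alternatives run. Those of Grik1 and Grid1 were lost without E16 plate 1, 3 or 4, that of Grik3 without E16 plate 2 or 3, and that of Gria2 without E16 plate 3 or 4 or P0 plate 3. Gria1, an AMPA receptor subunit, stood at 758, 665, 1208 and 955 CPM in members at E16 and at 1179, 645 and 913 CPM at P0, against 416 to 615 CPM in the other wells (0.94 ± 0.11, adjusted p = 4.23e-05, edgeR's quasi-likelihood test). Of 11 GABA-A receptor genes tested none was higher and 4 were lower, among them Gabrg3 (-1.15 ± 0.20, adjusted p = 0.0014), with a list median of -0.66. Gabra2 was also lower and was not called with spliced counts, while the calls of Gabra3 and Gabrb1 were lost without any 1 of 5 plates, E16 plates 3 and 4 and P0 plates 2 and 3 among them. Of 11 immature and 13 mature neuron genes tested, 1 each was lower, Gap43 and Syn2, beside 1.66% of all genes. Gap43 was not called without E16 plate 3 or P0 plate 3, nor Syn2 without E16 plate 1, 3 or 4 or P0 plate 3.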
